A study of Arabidopsis thaliana with 10 samples.

Results

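Roots of wild-type Arabidopsis thaliana short of sulfate were compared with roots that carried a high level of the repressor transcript SDI1 while sulfate was plentiful. The comparison rests on 4 of the 10 arrays of the series, chosen by their labels: the 2 arrays of the wild type Columbia (Col) grown for 10 days at 15 µM sulfate (Col -S), and the 2 arrays of plants overexpressing SDI1 grown for 10 days at 1500 µM sulfate (OX, the independent lines 6 and 12, 1 array each). The other 6 arrays hold Col at 1500 µM sulfate (Col +S) and the double knockout sdi1sdi2 (KO, lines 1 and 4, 1 array each) at 15 µM (KO -S) and at 1500 µM (KO +S). All plants grew on agar with sucrose, and the magnesium that came with the sulfate was kept equal in the low-sulfate medium by magnesium chloride. Col -S and OX differ in genotype and in sulfate supply at once, so the contributions of these to any difference cannot be told apart by this comparison alone. The sources used here do not give the promoter that drives SDI1 in OX, nor do they say whether both Col arrays of a group are separate cultures. The p-values thus measure only the spread between samples within the 5 groups, pooled over all 10 arrays. That pool mixes Col arrays with arrays of separate OX and KO lines.

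Plants take up sulfate, activate it with ATP sulfurylase, reduce it by way of sulfite to sulfide and build it into cysteine, from which methionine, glutathione and the sulfur-rich glucosinolates are made. Roots short of sulfate raise uptake and recycling of sulfur and cut the making of glucosinolates, the defence compounds of the cabbage family. SDI1 and its relative SDI2 are transcripts that accumulate when sulfur is short. SDI1 is known as a repressor of aliphatic (methionine-derived) glucosinolate synthesis and interacts with the transcription factor MYB28. The question of the comparison is what low sulfate brings about in wild-type roots beyond what a high level of SDI1 does at full sulfate.

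Levels are given on a log2 scale with an unknown zero point, so that a level can be negative and levels of different probe sets cannot be ranked against each other. A difference is Col -S minus OX, ± its SE from the fit. A probe set was called where its limma adjusted p, by Benjamini-Hochberg over 22197 probe sets, was under 0.05. All 95% intervals are unadjusted. An array's background is the 95th percentile of its 22 Bacillus control probe sets, and where no array of the dimmer group exceeded it, a lower bound of the fold ("at least") is printed in place of the difference. Counts by size and medians over lists use the fitted differences, and are given with such probe sets at their bound where that moves them. Col -S 2 stood apart in this respect: its background of 0.37 was the highest of the 10 arrays and left 51.4% of probe sets above it, against 58% to 66.7% on the other 9 arrays.

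A probe set for which the annotation lists no gene was picked because earlier results of these data showed it high in both groups. It read 8.86 and 9.13 in Col -S and 7.95 and 8.52 in OX, while the other 3 group means were -1.02 (Col +S), -1.19 (KO +S) and -1.56 (KO -S). The groups did not overlap, and the difference of 0.76 ± 0.21 was not called (limma adjusted p = 0.064, 95% interval 0.28 to 1.24). It was called with quantile normalization (adjusted p = 0.021), without the dimmest probe sets (0.036), with an intensity trend and robust prior (0.033) and without OX 12 (0.037), and ran from 0.47 to 1.04 over the fits without 1 array, with an adjusted p of up to 0.28. The annotation does not say which transcript it measures.

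In all, 1859 probe sets (8.38%) were called between Col -S and OX. Of these, 899 (4.05%) were higher in Col -S and 960 (4.32%) were lower, and 200 (0.901%) and 174 (0.784%) of them by at least 2-fold. The largest differences ran upward: 17 probe sets were higher by more than 4 on the log2 scale, 15 with dim groups at their bound, and 0 were lower by that much. Past 2-fold the counts at the bound were 180 higher and 153 lower. Of all tested probe sets 93.5% had a 95% interval of the difference that lay within 2-fold either way, with a median difference of -0.02. Arrays that did not overlap between the groups were common, at 20.6% of probe sets with Col -S higher and 26% with Col -S lower, and held every called probe set. Of the called probe sets 941 list a single gene, and 179 lay under the background in both groups. The count was 1014 without Col -S 2, 967 without OX 6, 992 without OX 12 and 1120 with the replicate number as a block, whereas the count past 2-fold, 374, stayed between 360 and 421 whichever array was left out.

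**Figure D1:**
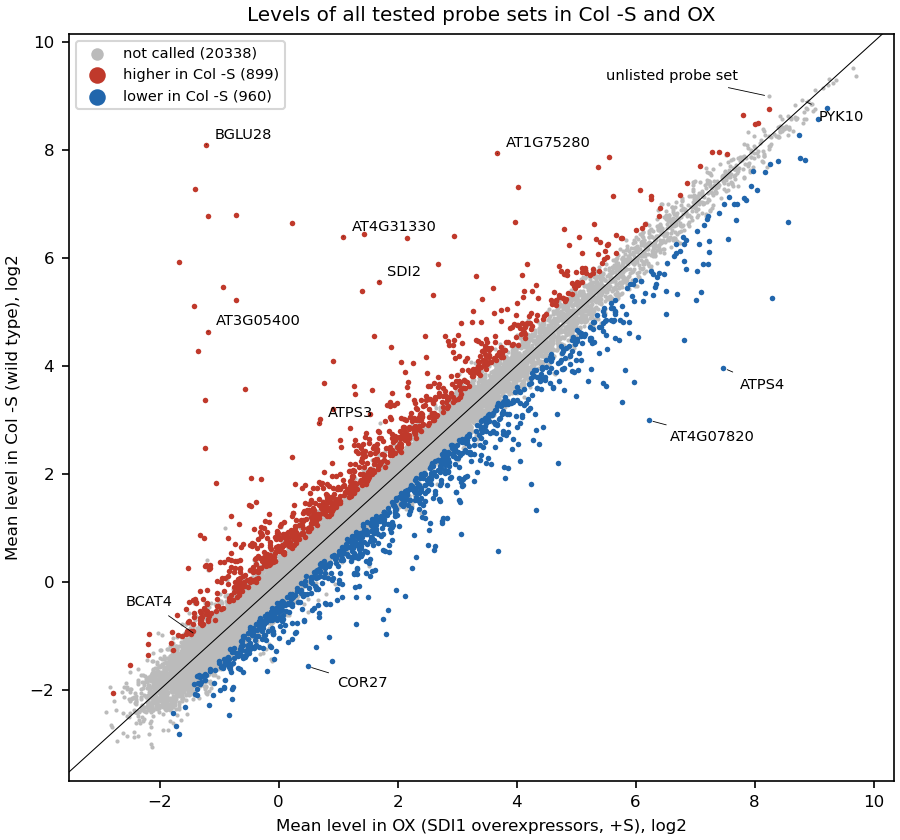
Mean log2 level of each of the 22197 tested probe sets in Col -S (vertical axis) against OX (horizontal axis), with 899 called higher in red, 960 called lower in blue and the rest in grey; the line marks equal levels. BGLU28 stands at 8.10 against -1.21, ATPS4 at 3.96 against 7.47, and the unlisted probe set described above, at 8.99 against 8.23, lies near the line.

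Markers of sulfur shortage were among the genes highest in Col -S relative to OX. BGLU28, a beta-glucosidase that hydrolyses glucosinolates and so can free their sulfur, read 8.12 and 8.07 in Col -S and -1.221 and -1.203 in OX. Both OX arrays lay under the background and both Col -S arrays far above it, at least 302-fold (limma adjusted p = 5.2e-09). In Col +S its mean was -1.43, also under the background.

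AT3G05400, a member of the sugar transporter family, read 4.61 and 4.66 in Col -S and -1.203 and -1.168 in OX, at least 27.4-fold (limma adjusted p = 5.2e-09). AT1G12030 read 4.09 and 4.47 against -1.31 and -1.40, at least 21.5-fold. For both, the OX arrays lay under the background and the Col -S arrays above it. AT1G75280, an isoflavone reductase-like gene, read 7.94 and 7.93 in Col -S and 3.73 and 3.62 in OX, 19.2-fold higher (limma adjusted p = 3.1e-08), and the related AT1G75290 was at least 6.19-fold higher. AT4G31330 differed by 5.30 ± 0.15, and AT3G56200, of an amino acid transporter family, by 3.17 ± 0.14. With SDI2, all 6 measured of the 20 genes on the list of sulfur deficiency markers were called higher in Col -S, against 4.05% of all probe sets. Their median difference was 4.95 (4.34 with dim groups at their bound). AT3G05400, AT1G12030, AT1G75280 and AT3G56200 were put on that list with their rise at low sulfate known, so the count is no independent evidence of its direction.

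SDI2 itself read 5.65 and 5.47 in Col -S and 1.52 and 1.86 in OX, a difference of 3.87 ± 0.50 (limma adjusted p = 0.0022). The OX arrays lay on either side of the Col +S mean of 1.70, and OX minus Col +S was -0.01 ± 0.50. Of its relatives, MS5L2 differed by 0.16 ± 0.10 (limma adjusted p = 0.41) and MS5L1 lay under the background in both groups.

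A further group was both high in Col -S and lower in OX than in Col +S. Of all probe sets 9.44% were called in Col -S minus Col +S (4.44% higher, 5% lower) and 0.649% in OX minus Col +S (0.243% higher, 0.405% lower). AT5G37990, a methyltransferase of the SABATH family, read 7.26 and 7.37 in Col -S and 4.10 and 3.96 in OX, with a Col +S mean of 5.03. The 3 groups did not overlap: Col -S was higher than OX by 3.29 ± 0.10 (limma adjusted p = 2.4e-07), and OX was below Col +S (-1.003 ± 0.10, limma adjusted p = 0.0034). The related AT5G37970 was higher in Col -S than in OX by 2.96 ± 0.16 and stood at -0.94 ± 0.16 in OX minus Col +S (limma adjusted p = 0.037). HL (AT5G54390), a nucleotidase of the HAL2 type, which clears the adenosine phosphate left over from sulfation, read 3.72 and 3.52 in Col -S and 1.38 and 1.17 in OX. Its difference was 2.35 ± 0.12 (limma adjusted p = 7.2e-06), and OX minus Col +S was -1.03 ± 0.12 (limma adjusted p = 0.0056). MSRB5, a methionine sulfoxide reductase, differed by 2.30 ± 0.12, with -0.85 ± 0.12 in OX minus Col +S (limma adjusted p = 0.015). For these 4 genes Col -S minus Col +S was 2.29, 2.02, 1.32 and 1.45 in the order given. That each is smaller than Col -S minus OX follows by arithmetic from the lower level in OX than in Col +S. It is no separate result, and both differences share the Col -S arrays.

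Other large rises were those of AT4G20820, of the berberine bridge enzyme family (2.92 ± 0.18), AT5G37980, of a zinc-binding dehydrogenase family (at least 3.93-fold) and AT5G40670, a homologue of the lysosomal cystine exporter cystinosin (2.35 ± 0.10). Probe sets without a listed gene were among the largest too: 252269_at, 246884_at and 251428_at were at least 171-fold, 120-fold and 67.3-fold higher in Col -S.

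**Figure D2:**
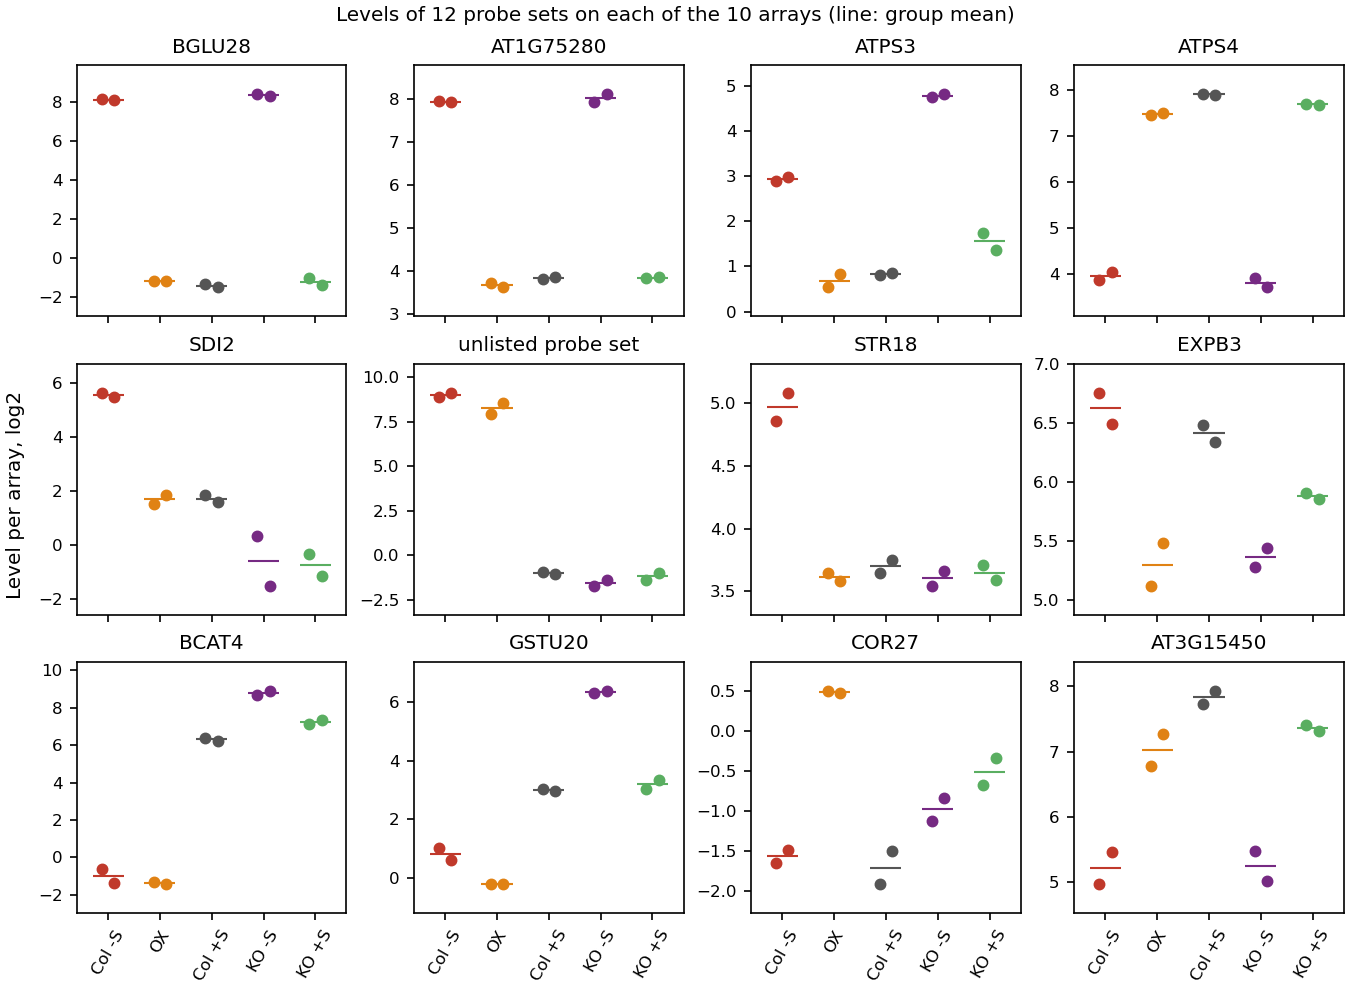
Log2 level of 12 probe sets on each of the 10 arrays, with a point for each array and a line at the mean of the 2 arrays of a group; the vertical scale differs between panels. BGLU28, AT1G75280 and ATPS3 are high at low sulfate in both genotypes, the unlisted probe set is high in Col -S and OX, BCAT4 is low in Col -S and OX, COR27 is highest in OX, and STR18 is highest in Col -S.

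In sulfate assimilation 3 of 23 listed genes were measured, and all were called, 2 higher and 1 lower in Col -S. Of all probe sets 4.05% were called higher and 4.32% lower. The ATP sulfurylase ATPS4 read 3.88 and 4.04 in Col -S and 7.46 and 7.49 in OX, 11.4-fold lower in Col -S (limma adjusted p = 2e-07). This was the largest negative difference of any called probe set with a single listed gene, and OX lay close to the Col +S mean of 7.90. Its relative ATPS3 went the other way, at 2.89 and 2.98 in Col -S against 0.54 and 0.83 in OX (2.25 ± 0.14, limma adjusted p = 3.9e-05).

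SIR, the sulfite reductase, read 5.20 and 5.19 in Col -S and 4.66 on both OX arrays, a difference of 0.54 ± 0.10 (limma adjusted p = 0.016). Both groups lay below the Col +S mean of 5.66: OX was lower than Col +S by 1.00 ± 0.10 (limma adjusted p = 0.0036) and Col -S minus Col +S was -0.47 ± 0.10 (limma adjusted p = 0.024). The call of SIR in Col -S minus OX was lost when any 1 of the 4 arrays compared was left out, with an adjusted p of up to 0.10 over all alternatives.

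Among genes of thiol metabolism, 2 of the 3 measured were higher in Col -S, against 4.05% of all probe sets. STR18, a sulfurtransferase of the rhodanese family, read 4.86 and 5.09 in Col -S and 3.65 and 3.58 in OX, a difference of 1.36 ± 0.11 (limma adjusted p = 2e-04), while OX lay near the Col +S mean of 3.70. GR1, a glutathione reductase, differed by 0.80 ± 0.09 (limma adjusted p = 0.001), with OX minus Col +S at -0.43 ± 0.09 (limma adjusted p = 0.088), and its plastid and mitochondrial counterpart GR2 stood at -0.32 ± 0.14 (limma adjusted p = 0.20). The glutaredoxin GRXC2, the only called member of 7 measured glutaredoxins and thioredoxins, was higher in Col -S by 1.00 ± 0.11. Of the tau-class glutathione transferases, which join glutathione to other compounds, 4 of 11 were higher and 0 lower, against 4.05% and 4.32% of all probe sets. They were GSTU27 (1.27 ± 0.10), GSTU25 (1.29 ± 0.20), GSTU22 (1.12 ± 0.16) and GSTU20, which belongs to the next group.

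Genes of aliphatic glucosinolate synthesis were low in both groups. BCAT4, the aminotransferase that starts the chain elongation of methionine, read -0.63 and -1.35 in Col -S and -1.34 and -1.42 in OX, under the background on all 4 arrays, against a mean of 6.31 in Col +S and 8.80 in KO -S. No difference between Col -S and OX can be measured for it at this background. AT2G25450, a dioxygenase of side-chain modification, read 2.63 and 2.50 in Col -S and 2.88 and 2.78 in OX, with a Col +S mean of 5.26. The Col -S arrays lay below the OX arrays, but the difference of -0.26 ± 0.11 was not called (limma adjusted p = 0.18, 95% interval -0.51 to -0.02).

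UGT74C1, a glucosyltransferase of the core pathway, read 0.59 and 0.23 in Col -S and 0.39 and 0.19 in OX, with a Col +S mean of 2.56. The groups overlapped, and the interval of the difference ran from -0.25 to 0.48 (0.12 ± 0.16, limma adjusted p = 0.73). On Col -S 2 UGT74C1 lay under that array's background of 0.37. GSTU20, the glutathione transferase of the core pathway, was the single called member: it read 1.01 and 0.61 in Col -S and -0.20 and -0.19 in OX, 2.0-fold higher in Col -S (limma adjusted p = 0.0049), with both groups far below the Col +S mean of 3.01. On OX 6 GSTU20 lay under that array's background of 0.01, so its fold is uncertain. Thus 1 of 5 measured genes of 27 was called higher and 0 lower, against 4.05% and 4.32% of all probe sets. The median difference was 0.12. AOP3 lay under the background in both groups.

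UGT74B1, the glucosyltransferase that serves the indolic branch, read 2.92 and 2.69 in Col -S and 3.01 and 3.34 in OX (-0.37 ± 0.13, limma adjusted p = 0.14). The regulators MYC3 and MYC4, partners of the glucosinolate MYB factors, stood at -0.37 ± 0.19 and -0.10 ± 0.24 and were not called, and MYB28 was not analysed here. Among genes of glucosinolate breakdown and transport, 2 of 4 measured were higher, against 4.05% of all probe sets. Beside BGLU28 this was GTR1, a glucosinolate importer, at 3.67 and 3.34 in Col -S against 1.98 and 1.85 in OX (1.59 ± 0.19, limma adjusted p = 0.0015). The second importer GTR2 stood at -0.46 ± 0.15 (limma adjusted p = 0.092), and PYK10, the abundant beta-glucosidase of root endoplasmic reticulum bodies, at 0.12 ± 0.15 (95% interval -0.22 to 0.47).

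**Figure D3:**
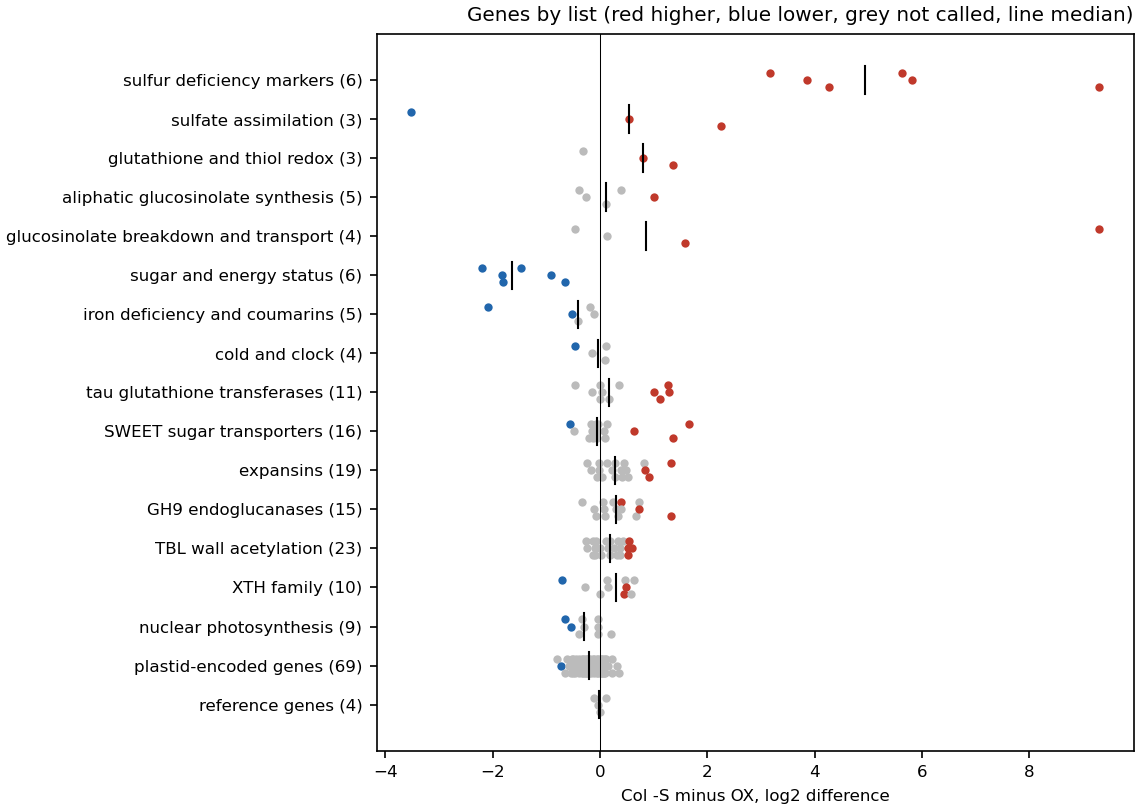
Difference Col -S minus OX (log2, horizontal axis) of each measured gene in 17 lists, with the number of measured genes in brackets, called genes in red (higher in Col -S) or blue (lower), others in grey, and the median of each list as a line. Sulfur deficiency markers lie to the right with a median of 4.95 from fitted differences (4.34 with dim groups at their bound), sugar and energy status genes to the left with a median of -1.64, and reference genes around 0.

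Genes tied to sugar and energy status were lower in Col -S than in OX. All 6 measured of 17 listed genes were called lower, with a median difference of -1.64, against 4.32% of all probe sets. AT3G15450, of a family of aluminium-induced-like proteins that respond to sugar, read 4.97 and 5.46 in Col -S and 6.77 and 7.27 in OX (-1.81 ± 0.22, limma adjusted p = 0.0018). ATL8, a RING finger protein, differed by -2.19 ± 0.24, AT1G23390, a Kelch-repeat F-box protein, by -1.82 ± 0.14, and GLYK, the glycerate kinase of photorespiration, by -1.47 ± 0.24. MCCA, of leucine breakdown, stood at -0.91 ± 0.12 and AKINBETA1, a subunit of the energy-sensing kinase SnRK1, at -0.65 ± 0.13. AT3G15450, ATL8, AT1G23390 and GLYK entered the list with their fall at low sulfate known, so the count is no independent evidence of its direction.

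Further down in Col -S were AT4G07820, of the family of pathogenesis-related PR-1 proteins, AT5G62360, of the pectin methylesterase inhibitor family, and S8H, the scopoletin hydroxylase that makes the iron-mobilising coumarin fraxetin. AT4G07820 read 3.07 and 2.92 in Col -S and 6.34 and 6.11 in OX (-3.23 ± 0.19, limma adjusted p = 2.7e-05). AT5G62360 and S8H lay under the background on both Col -S arrays and were at least 3.46-fold and 2.38-fold higher in OX. Of the iron and coumarin list, 2 of 5 measured genes were lower in Col -S, against 4.32% of all probe sets. They were S8H and F6H1, which acts before it. The call of F6H1 (-0.51 ± 0.11) was lost in 6 of the 10 fits that left out an array. AT4G39675 (-2.34 ± 0.13), AT5G56100 (-2.02 ± 0.16) and the peroxidase AT5G19890 (-1.997 ± 0.13) were lower as well. Of the small cysteine-rich defensins 2 of 9 were lower in Col -S, against 4.32% of all probe sets. They were LCR69 (-0.67 ± 0.10, limma adjusted p = 0.0057) and PDF2.1 (-1.32 ± 0.21, limma adjusted p = 0.007), the latter not called without OX 12.

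Some of the genes that were lower in Col -S than in OX were higher in OX than in Col +S too. COR27, a cold-regulated gene that feeds into the circadian clock, read -1.64 and -1.49 in Col -S, a mean of -1.71 in Col +S, and 0.50 and 0.47 in OX. Its OX arrays were the only ones above the background among these 3 groups. OX was at least 1.36-fold higher than Col -S (limma adjusted p = 0.00022) and was also called higher than Col +S (limma adjusted p = 0.00057). Between Col -S and Col +S no difference can be measured at this background. AT4G33980, its homologue, read -0.84 and -1.10 in Col -S and 1.61 and 2.01 in OX, at least 3.39-fold higher in OX (limma adjusted p = 0.00011), and OX minus Col +S was 1.97 ± 0.21. AT5G60760, of a phosphoglycerate kinase-related family, was lower in Col -S by 2.49 ± 0.10, with OX minus Col +S at 0.98 ± 0.10.

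COR27 and AT4G33980 are not on the list of cold and clock genes. Of that list 1 of 4 measured genes was called, against 8.38% of all probe sets. The clock gene GI was lower in Col -S (-0.46 ± 0.10, limma adjusted p = 0.021), a call lost without Col -S 2, OX 6 or OX 12. COR47 stood at 0.10 ± 0.11, and COR15A and COR15B lay under the background in both groups. The labels give the light cycle of the growth chamber but no hour of harvest for any group.

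In families of the cell wall and of sugar transport most members were not called. Their counts stand against 4.05% of all probe sets called higher and 4.32% called lower. Of 19 expansins, which loosen walls, 3 were higher and 0 lower. EXPB3 read 6.76 and 6.49 in Col -S and 5.12 and 5.48 in OX (1.33 ± 0.15, limma adjusted p = 0.001); Col +S lay at 6.41, so that EXPB3 was lower in OX (-1.11 ± 0.15, limma adjusted p = 0.011) and not called in Col -S minus Col +S (0.21 ± 0.15, limma adjusted p = 0.43). EXLB1 differed by 0.83 ± 0.12 and EXPA7, an expansin of root hairs, by 0.91 ± 0.14 (limma adjusted p = 0.0055).

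Of the 15 endoglucanases of family GH9 3 were higher: GH9B8 (1.32 ± 0.16), GH9C2 (0.73 ± 0.14) and GH9B7 (0.40 ± 0.09). GH9C2 was not called on omitting Col -S 1 (adjusted p = 0.061) or OX 6 (0.077), nor GH9B7 in 8 of the 10 fits that left out an array. Of the 23 TBL genes of wall acetylation 4 were higher, among them TBL38 (0.53 ± 0.09, adjusted p = 0.053 without OX 6) and TBL21 (0.59 ± 0.14, lost in 7 of the 10 fits that left out an array, with an adjusted p of up to 0.13). The calls of the other two were lost in 3 (TBL19) and 7 (TBL37) of those fits. Of the 16 SWEET sugar exporters 3 were higher and 1 lower: SWEET14 was at least 1.95-fold higher in Col -S (limma adjusted p = 4.5e-05), SWEET13 by 1.36 ± 0.10 and SWEET2 by 0.63 ± 0.14, while SWEET3 was called lower with both Col -S arrays under the background. The call of SWEET2 was lost without any 1 of the 4 arrays compared (adjusted p up to 0.13) and that of SWEET3 without Col -S 2 (0.12), OX 6 (0.096) or OX 12 (0.095). Of 10 XTH genes, which remodel xyloglucan, 2 were higher and 1 lower, and each call was lost on leaving out some arrays: XTH26 in 3 of 10 fits (without Col -S 1, OX 6 or OX 12, adjusted p of 0.075 to 0.085), XTH20 in 8 and XTH32 in 9. Of 51 glycosyltransferases 4 were higher and 1 lower. UGT73B4, at least 1.79-fold higher, kept its call in all 10 fits, while UGT72B3 lost its call in all 10 fits and UGT72E2 and UGT71C3 in 3 each. Of 19 beta-glucosidases 2 were higher, BGLU28 and BGLU15 (1.42 ± 0.11). The 1 lower call among the beta-glucosidases, BGLU45, lay under the background in both groups.

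The samples are whole roots, so a change in the share of a cell type and a change in RNA per cell cannot be told apart. The 5 measured root cell type markers had a summed linear level of 66.9 to 73.7 in Col -S against 54.7 to 58.3 in OX, 52.5 to 57.5 in Col +S and 53.4 to 57.1 on the KO arrays. Of the 5, 4 were above background on both arrays in Col -S and in OX. EXPA7 (0.91 ± 0.14), also counted among the expansins, was the 1 member called, of 5 measured and 23 listed. Of all probe sets 4.05% were called higher. EXPA18 stood at 0.49 ± 0.15, SGN3 at 0.29 ± 0.09, PRX72 at 0.07 ± 0.11 and the remaining marker at -0.04. The rise of the sum was thus not shared by all of the markers. The part of the shift in this sum in the wall genes was not tested. The 9 nuclear photosynthesis genes summed to 17.6 to 19.1 in Col -S and 22.6 to 24.4 in OX. Their sums were 27 to 30.2 in Col +S, 15 to 16.2 in KO -S and 23.1 to 23.3 in KO +S. Above background on both arrays were 5 of the 9 in Col -S and 8 in OX. Called lower in Col -S were 2 of 9, against 4.32% of all probe sets: LHCB4.1 (-0.65 ± 0.11) and PSB27 (-0.54 ± 0.12). The median of the list was -0.29. LHCB4.1 was not called on omitting Col -S 2 (adjusted p = 0.0504) or OX 6 (0.053), nor PSB27 in 5 of the 10 fits that left out an array (up to 0.13 without OX 12). Of 69 plastid-encoded genes 1 was called, against 8.38% of all probe sets. It was psbB, a photosystem II subunit (-0.73 ± 0.14), a call lost without Col -S 2 or OX 12. The part of green tissue in the energy status genes was not tested. None of the 4 reference genes measured was called, and their differences lay between -0.11 and 0.12.

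The same probe sets could be followed in arrays that share no sample with these, the KO arrays at low and full sulfate, in which neither SDI gene is intact by genotype. Calls in both contrasts use the same spread of a probe set, pooled over all 10 arrays, so the calls are not independent of each other. Over all probe sets 1426 (6.42%) were called in KO -S minus KO +S, 649 (2.92%) higher and 777 (3.5%) lower, and 50% had a positive difference. Of the 899 probe sets higher in Col -S than in OX, 353 (39.3%) were called higher in KO -S, which was 54.4% of those higher in KO -S, 5 were called lower, and 91.2% had a positive difference. Of the 960 lower ones, 401 (41.8%) were called lower in KO -S, which was 51.6% of those lower there, and 10 were called higher. Their median differences were 0.67 and -0.63 in Col -S minus OX, and 0.39 and -0.40 in KO -S minus KO +S.

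Among larger differences the shared part was larger. Of the 200 that were at least 2-fold higher 142 (71%) were called higher in KO -S, and of the 174 at least 2-fold lower 132 (75.9%) were called lower. Past a fitted difference of 2 on the log2 scale it was 45 of 46 higher ones, the exception being SDI2, which is disrupted in KO, and 16 of 20 lower ones. With dim groups at their bound, 42 and 13 probe sets lay past 2. The 4 lower exceptions, named after their values were seen, were COR27 and the unlisted 252827_at, 257985_at and 264052_at. These counts moved with single arrays. For KO alone 564 calls were left on omitting KO +S 1, 677 on omitting KO -S 4, 842 on omitting KO +S 4 and 910 on omitting KO -S 1, with up to 1457 on omitting a Col -S array. The count higher in both was 205 and 216 on omitting KO +S 1 and KO +S 4. The count lower in both was 183 and 197 on omitting the same arrays, 218 on omitting KO -S 4, 240 on omitting OX 12 and 252 with the replicate block.

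**Figure D4:**
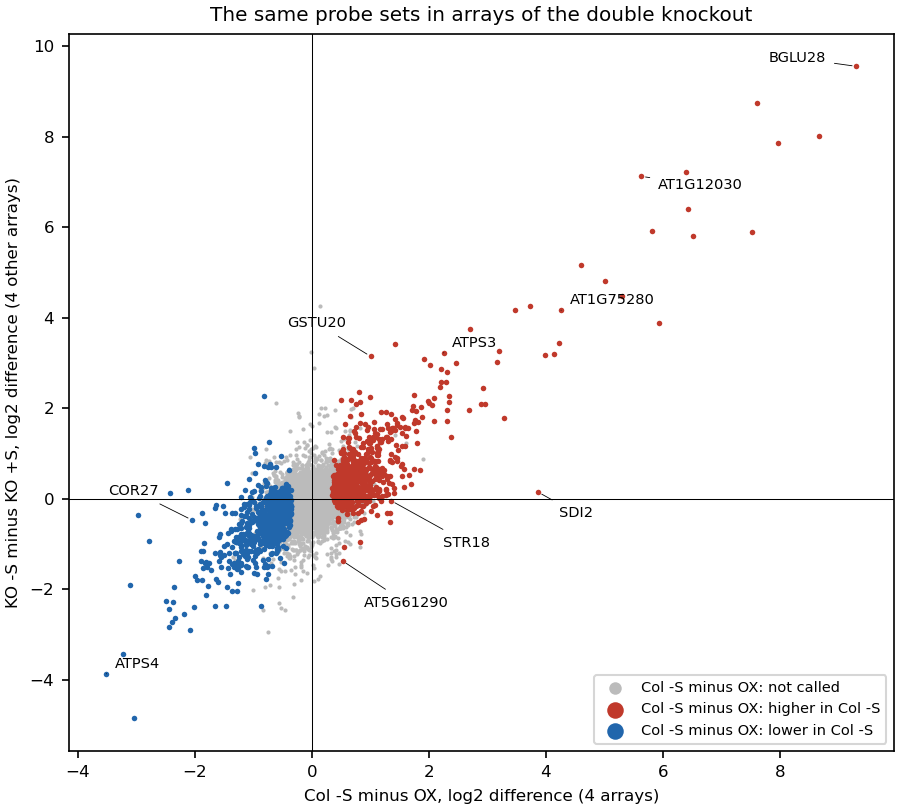
Log2 difference KO -S minus KO +S (vertical axis) against Col -S minus OX (horizontal axis) for each of the 22197 tested probe sets; red and blue mark those called higher or lower in Col -S minus OX. Differences are as fitted, also where a group lay under the background, as for BGLU28 at the upper right. ATPS4 lies at -3.51 and -3.87, SDI2 at 3.87 and 0.15, GSTU20 at 1.00 and 3.15, and STR18 at 1.36 and -0.04.

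Some named genes that were called in both are set side by side here. BGLU28 was higher at least 302-fold in the first contrast and at least 457-fold in KO. AT1G75280 differed by 4.26 and 4.17, ATPS4 by -3.51 and -3.87, AT5G40670 by 2.35 and 2.14, HL by 2.35 and 2.27 and GTR1 by 1.59 and 1.57. All 6 energy status genes were called lower in KO -S as well, against 3.5% of all probe sets, with a median of -1.77. Most of them were listed with their fall at low sulfate known, so this count is no independent evidence either. GSTU27 differed by 1.27 and 1.38, and BGLU15 by 1.42 and 1.52.

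The difference between both contrasts was called for 115 probe sets (0.518%), 30 (0.135%) with the larger value in Col -S minus OX and 85 (0.383%) with the larger value in KO. In 37 of the 115 at least 1 of the 4 groups lay under the background on both arrays, so the size of that difference is not measured. The count was 20 on omitting KO +S 1, 41 on omitting KO -S 4, 52 on omitting OX 6, 66 on omitting Col -S 2, 67 on omitting KO -S 1 or OX 12, and 41 with the replicate block. The 115 held 35 of the 899 higher probe sets, 22 with the larger value in Col -S minus OX and 13 with the larger value in KO. They also held 30 of the 960 lower ones, all with the lower value in Col -S minus OX. These counts go by sign and not by distance from 0: psbB stood at -0.73 in Col -S minus OX and at 1.25 in KO.

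Of the 5 measured genes of aliphatic glucosinolate synthesis 4 rose at low sulfate in KO, with a median of 1.59. For 3 of them the difference from Col -S minus OX was called. Of all probe sets 2.92% were called higher in KO -S and 0.518% in that difference. GSTU20 rose by 3.15 ± 0.15 in KO against 1.00 in Col -S minus OX (limma adjusted p of the difference 0.0049), UGT74C1 by 1.88 ± 0.16 against 0.12 (0.014) and AT2G25450 by 0.97 ± 0.11 against -0.26 (0.011). UGT74B1 of the indolic branch rose by 0.96 ± 0.13 in KO against -0.37 (limma adjusted p of the difference 0.023). SIR rose by 1.37 ± 0.10 in KO against 0.54, a difference that was not called (limma adjusted p = 0.058), and for AT1G12030, whose full-sulfate groups lay under the background, the bounds were at least 75.8-fold in KO and at least 21.5-fold in Col -S against OX.

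Others moved further in Col -S minus OX. STR18 differed by 1.36 there and by -0.04 ± 0.11 in KO (limma adjusted p of the difference 0.0088), and AT4G33550, which was chosen with STR18 by the rule for such genes, by 1.27 ± 0.13 and 0.09 ± 0.13 (0.036). That rule took only genes already called in the difference of the contrasts, so its adjusted p adds nothing for either gene. EXPB3 stood at 1.33 and -0.52 (limma adjusted p of the difference 0.0083) and EXLB1 at 0.83 and -0.46 (0.014). AT5G37990 stood at 3.29 and 1.79 (limma adjusted p of the difference 0.0047). For SWEET14 and COR27, under the background in at least 2 of the 4 groups, and AT4G33980, under it in Col -S, no difference between the contrasts is given. The difference of SDI2, 3.72 ± 0.70, did not pass the test (limma adjusted p = 0.08).

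Calls of opposite direction were few: 15 probe sets, 5 higher in Col -S than in OX but lower in KO -S than in KO +S, and 10 the other way, of which 10 list a single gene. AT5G61290, of the flavin-containing monooxygenase family, read 1.38 and 1.47 in Col -S and 1.02 and 0.78 in OX (0.53 ± 0.11, limma adjusted p = 0.023, and 0.054, 0.11 and 0.11 without Col -S 1, Col -S 2 and OX 12), and fell by 1.37 in KO (KO -S minus KO +S -1.37 ± 0.11). AT3G23570, of the dienelactone hydrolase family, read 1.57 and 1.43 in Col -S and 2.35 and 2.57 in OX (-0.97 ± 0.11, limma adjusted p = 0.001) and rose by 1.01 ± 0.11 in KO. AT3G48410, of the alpha/beta hydrolase family, stood at -0.69 ± 0.10 and 0.71 ± 0.10. The 3 genes did not overlap between Col -S and OX.

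AT2G43550, of the defensin-like trypsin inhibitor family, stood at -0.98 ± 0.16 in Col -S minus OX (adjusted p = 0.054 without OX 6) and 1.13 ± 0.16 in KO, and psbB at -0.73 ± 0.14 and 1.25 ± 0.14. AT5G47980, of the BAHD acyltransferase family, read 1.65 and 1.99 in Col -S and 2.52 and 2.96 in OX, with 0.88 in Col +S. It was thus above Col +S in both groups, by 0.94 ± 0.18 in Col -S (limma adjusted p = 0.011) and by 1.85 ± 0.18 in OX (limma adjusted p = 0.0022), and rose by 0.78 ± 0.18 in KO; its lower level in Col -S than in OX (-0.91 ± 0.18) was not called without Col -S 1 (adjusted p = 0.067) or OX 12 (0.081). Since these genes were picked for opposite calls, a test of the difference between both contrasts adds nothing for them.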

How the data were processed

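Root RNA on 10 ATH1 arrays was assigned to 5 groups of 2 by array title. The authors deposited an expression value per probe set and array, on a log10 scale. The sources used here do not give how these were background-corrected, summarised and normalised. The base was settled from the spiked controls, whose slope on a log10 scale was 1.13 to 1.20 against nominal concentration, so folds of bright probe sets may be overstated and bounds hold on this scale only. Values were multiplied by 3.3219 to give log2 values. Of 22810 probe sets, 554 had no value and 64 were controls (5 of these both), which left 22197. The platform annotation lists a single gene for 13513, several for 503 and none for 8794; 13436 of the 13513 were matched to RefSeq names (TAIR10.1). The table held 0 other columns of per-sample values. No probe brightness, and thus no depth, is given, and the number of arrays limits the precision.

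A mean per group was fitted over all 10 arrays by limma's lmFit and eBayes (limma 3.58.1, R 4.3.3, 5 residual and 3.81 prior degrees of freedom), and p-values were adjusted by Benjamini-Hochberg. The fit was also run on simulated data, the outcome of which is not given here. The contrasts were Col -S minus OX, KO -S minus KO +S and the difference of these. Col -S minus Col +S and OX minus Col +S, which share arrays with the first, are given side by side only. Algebraically, Col -S minus OX is the first of these minus the second.

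The comparison, the 48 gene lists and the naming rule were chosen with earlier results of these data known. The rule selected the 15 largest differences in each direction among called single-gene probe sets. Their groups did not overlap and their brighter group lay above background. Added were SDI2 and 1 unlisted probe set high in both groups. So were all measured members of the lists on SDI relatives, sulfur, and aliphatic glucosinolates with their breakdown and transport. Up to 4 members by moderated t came from every other list described. Genes with opposite calls in KO were taken by size. Genes with absent change in KO were too, and these also had to be called in the difference of the contrasts. The 3 largest unlisted probe sets in each direction were the last. Not all of these are described above: AT2G15960, AT4G16000, AT1G19530, AT5G39670, AT3G14595, TAAC, 254550_at and 251438_s_at are among those left out. Of the sulfate transporters, nitrate, aquaporin, Casparian strip, MYB, ERF, heat shock, cyclin, ABC transporter and mitochondrial lists, 0 members were measured. KO arrays of the same number come from the same mutant line. Deviations from group means correlated at 0.07 between the arrays of a line, and at -0.14 between Col arrays with the same label number, which nothing else ties together. Sequences and promoters were not used here.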

Additional observations from a re-analysis of the deposited data

How the results depend on the processing

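The 1859 probe sets called in Col -S minus OX (899 higher, 960 lower) became 935 with array weights (462 and 473), 1120 with the replicate block (566 and 554), 787 with 1 probe set per gene (391 and 396) and 641 with only the arrays compared (333 and 308). With 1 probe set per gene, fewer features being tested, the 374 past 2-fold became 180, the 1426 of KO -S minus KO +S 617, those higher in both 145 and those lower in both 163. The replicate block gave 252 lower in both and 41 for the difference of the contrasts, which was 202 with an intensity trend and robust prior and 38 with 1 probe set per gene. Leaving out 1 array at a time, where a lone array is assumed to vary like the other groups, gave 967 to 1645 calls (495 to 799 higher, 472 to 846 lower), 360 to 421 past 2-fold, 564 to 1457 in KO, 205 to 305 higher in both, 183 to 317 lower in both and 20 to 153 for the difference. Median centring, quantile normalization, a filter on dim probe sets by mean level and a background filter added after the data were seen kept these counts within 1.5 times, where each was run. The causes were not tested. Over the named genes and all alternatives, 2037 values kept their direction and call, 183 lost the call, 25 gained it and 9 changed sign, all of the latter in genes not called. Over the fits without 1 array UGT74C1 ran from -0.064 to 0.297, PYK10 from -0.003 to 0.252, MYC4 from -0.437 to 0.237, COR15B from -0.087 to 0.289, PRX72 from -0.031 to 0.161 and AP2M from -0.014 to 0.025, and AP2M was -0.032 with quantile normalization. A search of promoters for the sulfur-responsive element was planned and not run. The high background of Col -S 2 limits what can be said of dim genes.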
